A study of Rattus norvegicus with 24 samples.

Results

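The small GTPase gene Rhog, the adhesion gene Zyx and 6 genes whose products act beside them (Elmo1, Dock1, Vasp, Vcl, Tln1 and Pxn) were followed in tissue punches of 2 rat brain regions, the ventral tegmental area (VTA) and the nucleus accumbens (NAC). The 8 genes were taken by symbol from count tables of 37403 identifiers; 8 of 8 were found and passed the filter on low counts in both regions. Rhog and Zyx were chosen by their measured VTA difference between sire groups, having been among the genes with the smallest p-values there, and the other 6 because of their known roles. The VTA difference is therefore given for all 8 as a description with no p-value, while NAC values, which were not used to make the choice, were tested. Earlier results of these data were known when the 8 genes and the wider gene lists were chosen, so the choice was not blind.

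RNA came from bilateral punches of F1 rats, aged at least 60 postnatal days and described as male, whose fathers had spent 60 days self-administering either morphine (the MOR-sired groups) or saline (the SAL-sired groups). The offspring themselves are not said to have received a drug. There were 5 MOR-sired and 5 SAL-sired VTA libraries, and 7 MOR-sired and 7 SAL-sired NAC libraries. The labels name no animal or litter, so the p-values reflect only how these libraries spread, and libraries may share fathers, litters or animals.

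RhoG is a small GTPase that works as a switch, bound to GTP when on and to GDP when off. Exchange factors such as Trio, kalirin and the Vav proteins turn it on. Active RhoG binds ELMO proteins, which form a complex with DOCK proteins, and this complex turns on Rac and so actin assembly at the cell edge, in cell migration, in the engulfment of dying cells and in neurite outgrowth. Zyxin sits where actin bundles meet integrin adhesions and brings in VASP, which lengthens actin filaments. At the same adhesions talin holds integrins, vinculin links talin to actin, and paxillin is a scaffold for signalling proteins. In brain tissue such proteins are found in neurons, glia and vessels, so none of the 8 transcripts marks a single cell type.

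The promoters of Rhog and Zyx, on which the VTA comparison turned, are printed here. The RefSeq table of assembly GRCr8 had windows of 300 bases, from 250 before to 50 after the start, for 8 of 8 genes, 10 windows in all. Capitals mark a GC box (GGGCGG, a site of Sp-family factors) or a TEAD site (GGAATG, bound by the DNA-binding partners of YAP), read on either strand. Overlapping matches were counted separately. The Rhog window lies at chr1:166042152-166042451 on the minus strand. The Zyx windows lie at chr4:72203750-72204049 and chr4:72204185-72204484 on the plus strand.
Rhog: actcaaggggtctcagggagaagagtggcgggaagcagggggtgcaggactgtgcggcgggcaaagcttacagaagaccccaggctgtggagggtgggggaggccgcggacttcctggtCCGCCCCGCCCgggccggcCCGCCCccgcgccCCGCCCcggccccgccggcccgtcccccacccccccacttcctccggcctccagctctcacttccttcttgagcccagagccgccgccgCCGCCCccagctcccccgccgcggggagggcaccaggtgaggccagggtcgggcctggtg
Zyx window 1: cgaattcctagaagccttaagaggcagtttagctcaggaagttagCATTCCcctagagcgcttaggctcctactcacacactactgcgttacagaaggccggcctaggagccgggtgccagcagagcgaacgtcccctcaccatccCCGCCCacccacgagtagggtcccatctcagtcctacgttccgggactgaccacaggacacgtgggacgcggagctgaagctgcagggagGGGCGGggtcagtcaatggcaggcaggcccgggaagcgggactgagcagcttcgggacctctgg
Zyx window 2: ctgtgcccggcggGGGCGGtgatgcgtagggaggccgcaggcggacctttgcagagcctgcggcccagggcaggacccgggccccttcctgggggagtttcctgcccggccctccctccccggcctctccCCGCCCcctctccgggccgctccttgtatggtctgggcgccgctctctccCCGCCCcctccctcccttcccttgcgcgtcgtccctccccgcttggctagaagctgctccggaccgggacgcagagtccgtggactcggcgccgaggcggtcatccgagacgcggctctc

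The Rhog window was 76% G and C and held 5 GC boxes, while the Zyx windows were 62% and 74.3% G and C and held 2 and 3. Over all 33469 windows of the table the mean was 52.8% G and C, and 33.1% held a GC box. Of the 10 windows of the 8 genes, 7 windows from 6 genes held one, and those of Tln1 and Pxn did not. A TEAD site was found in 3 windows, the first of Zyx and those of Vcl and Dock1, against 14.2% of all windows. The CArG box, the site of serum response factor, of which vinculin is a textbook target, was in none of the 10 windows and in 1.64% of all. These are matches of letters and not measured binding.

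All levels are CPM (estimated counts per 1e+06 counts of the library) with trimmed-mean (TMM) scaling between libraries unless called plain CPM. The deposited estimates follow transcript abundance per length, so levels of different genes can be set side by side. Totals ran from 23.6 to 43.5 M in VTA and from 21.9 to 41.3 M in NAC (1 M is 1e+06 counts). TMM factors ran from 0.849 to 1.06 in VTA, with MOR-sired VTA 2 lowest, and from 0.975 to 1.02 in NAC. Against the description as male, 4 VTA libraries (replicates 3, 4 and 5 of MOR-sired VTA, and SAL-sired VTA 5) carried Xist, the RNA that coats an inactive X, at 78.9 to 108 plain CPM, while the others had at most 0.253 plain CPM. The Y-linked Ddx3y was at 0.0720 plain CPM or less in these 4 and at 40.3 plain CPM or more in the other VTA libraries. Both genes are given here for VTA only. With 3 of the 4 MOR-sired and 1 SAL-sired, sex as read from these genes is partly mixed with sire group. The VTA sire differences of all 8 genes are therefore also given without these 4.

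Rhog was the most abundant of the 8 transcripts and, with Zyx, the only one whose VTA groups did not overlap after TMM scaling. Rhog had 183, 167, 159, 180.2 and 160.1 CPM in MOR-sired VTA 1 to 5, against 143, 138, 143, 145 and 141 CPM in SAL-sired VTA 1 to 5. The SAL-sired libraries lay close together, and the lowest MOR-sired library was above the highest of them. Rhog averaged 170.0 ± 11.2 CPM in MOR-sired and 142 ± 2.51 CPM in SAL-sired VTA (SD, n = 5 each), a log2 fold change of 0.26 (SE 0.05), or 1.20-fold. As this comparison chose Rhog, the difference is a description and may be too large.

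Zyx had 33.6, 32.6, 32.1, 32.5 and 31.8 CPM in MOR-sired VTA 1 to 5, against 29.2, 27.0, 24.5, 28.2 and 27.6 CPM in SAL-sired VTA 1 to 5. Here the MOR-sired libraries were the close group, and again none fell within the SAL-sired range. Zyx averaged 32.5 ± 0.673 CPM in MOR-sired and 27.3 ± 1.77 CPM in SAL-sired VTA (SD, n = 5 each), a log2 fold change of 0.25 (SE 0.05), or 1.19-fold. Among genes with a symbol, a mean of at least 1 CPM and the VTA comparison's smallest p-values, Rhog stood at rank 2 and Zyx at rank 7. These values chose the genes and are not evidence for them.

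**Figure D1:**
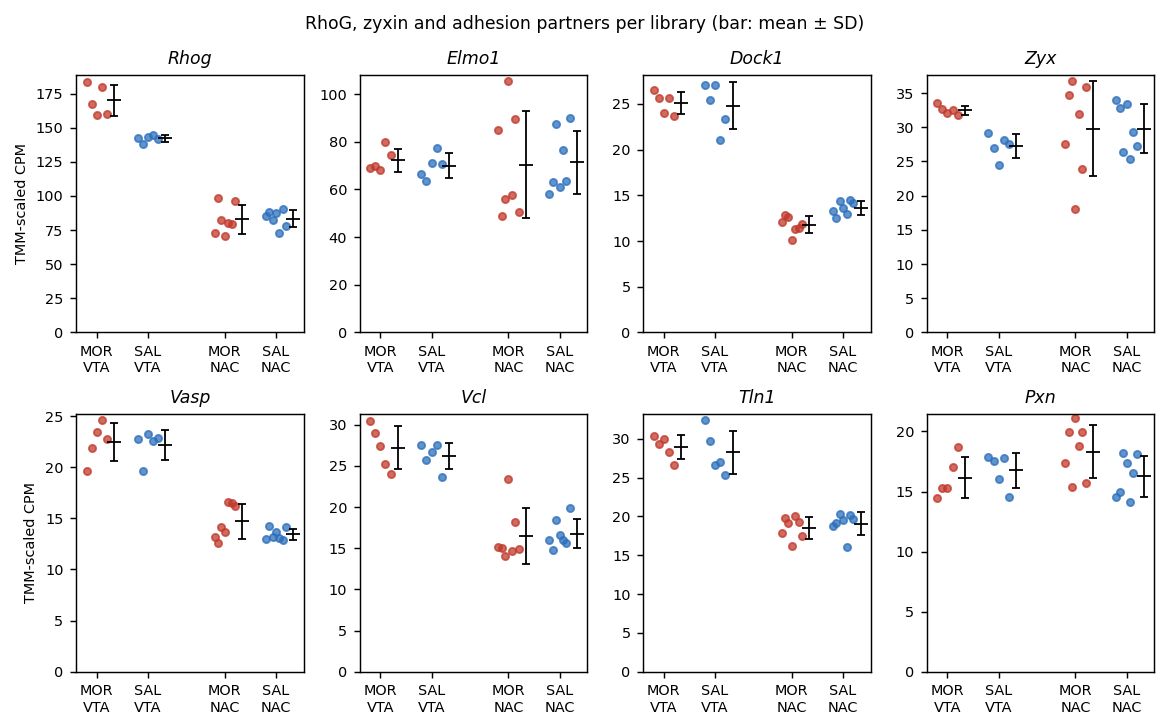
Each panel shows 1 gene, with each point the TMM-scaled CPM of 1 library (axis from 0) in MOR-sired and SAL-sired VTA (5 each) and NAC (7 each), and bars giving mean ± SD. Rhog and Zyx separate the sire groups in VTA and not in NAC, and Rhog, Dock1, Vasp, Vcl and Tln1 lie higher in VTA than in NAC.

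In these bulk punches, fewer cells of a type and less RNA per cell cannot be told apart. The separation of the VTA groups depended on the scaling. In plain CPM, Rhog had 184, 142, 160.1, 170.3 and 168 CPM in MOR-sired VTA 1 to 5, against 146, 143, 151, 149 and 143 CPM in SAL-sired VTA 1 to 5. MOR-sired VTA 2 then fell below every SAL-sired library, and 4 of 5 MOR-sired libraries stayed above all of them. For Zyx, MOR-sired VTA 2 had 27.7 plain CPM, inside the SAL-sired range of 25.9 to 29.8. With total counts as the only scaling the log2 fold changes were 0.17 for Rhog and 0.17 for Zyx.

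Both differences kept their sign in the other fits, which reuse the VTA values that chose the genes and so are not further evidence. Without the 4 libraries with Xist, which left 2 MOR-sired and 4 SAL-sired libraries, the log2 fold change was 0.30 for Rhog and 0.28 for Zyx. Library totals fell on either side of 30 M in the same replicates of both sire groups. Among the libraries above 30 M the values were 0.22 for Rhog and 0.27 for Zyx, and among those below it 0.32 and 0.24. The fit below 30 M and the fit without Xist libraries held the same MOR-sired libraries, MOR-sired VTA 1 and 2. Presence of Xist and library total therefore cannot be told apart in MOR-sired VTA. Both fits include MOR-sired VTA 2, which had the lowest TMM factor, 0.849. Leaving out any 1 library gave 0.23 to 0.28 for Rhog and 0.21 to 0.28 for Zyx.

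Of 4 marker sums set beside these differences, that of serotonin neurons separated the VTA groups and the others overlapped. The 4 serotonin neuron markers summed to 104 to 272 plain CPM in MOR-sired VTA, against 6.50 to 97.9 plain CPM in SAL-sired VTA, with no overlap. The 12 oligodendrocyte markers summed to 26996 to 36766 plain CPM in MOR-sired and 25197 to 32202 plain CPM in SAL-sired VTA, and the 6 fibroblast markers to 50.1 to 68.1 plain CPM in MOR-sired libraries, against 59.4 to 178 plain CPM in SAL-sired ones. The 14 endothelial markers summed to 431 to 572 plain CPM in MOR-sired and 449 to 560.0 plain CPM in SAL-sired VTA. No marker of these lists was at 0 throughout a region. Their part in the Rhog and Zyx differences was not tested beyond the correlations with Mbp and Cldn5 given further on.

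The partners that carry the RhoG signal to Rac did not separate the VTA groups. Elmo1, which binds active RhoG, had 69.0, 69.9, 68.1, 79.8 and 74.5 CPM in MOR-sired VTA 1 to 5, against 66.4, 63.7, 71.0, 77.5 and 70.8 CPM in SAL-sired VTA 1 to 5. The ranges overlapped over most of the SAL-sired one, with a log2 fold change of 0.05 (SE 0.06). Dock1, the exchange factor for Rac, had 26.5, 25.7, 24.1, 25.7 and 23.6 CPM in MOR-sired VTA 1 to 5, against 27.0, 25.5, 27.0, 21.1 and 23.4 CPM in SAL-sired VTA 1 to 5. The MOR-sired range lay inside the SAL-sired one, with a log2 fold change of 0.02 (SE 0.07).

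The adhesion partners of zyxin overlapped between the VTA groups as well. Vasp, which binds zyxin and extends actin filaments, averaged 22.5 ± 1.86 CPM in MOR-sired and 22.2 ± 1.49 CPM in SAL-sired VTA (log2 fold change 0.02, SE 0.07). Vcl, the link from talin to actin, averaged 27.2 ± 2.64 CPM in MOR-sired and 26.2 ± 1.59 CPM in SAL-sired VTA (0.05, SE 0.07). Tln1, the integrin-bound talin, averaged 28.9 ± 1.50 CPM in MOR-sired and 28.3 ± 2.81 CPM in SAL-sired VTA (0.03, SE 0.07). Without the 4 libraries with Xist the log2 fold changes of these partners were −0.0050 for Elmo1, 0.05 for Dock1, −0.09 for Vasp, 0.15 for Vcl and 0.04 for Tln1.

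Pxn, the scaffold paxillin, was the only member with a lower mean in MOR-sired VTA after TMM scaling. It had 14.4, 15.3, 15.3, 17.1 and 18.7 CPM in MOR-sired VTA 1 to 5, against 17.9, 17.6, 16.0, 17.8 and 14.5 CPM in SAL-sired VTA 1 to 5. The libraries with Xist included the highest MOR-sired and the lowest SAL-sired value. The log2 fold change was −0.05 (SE 0.09), and it was −0.22 without the 4 libraries with Xist, −0.26 among libraries below 30 M and 0.09 among those above.

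Counted together, 7 of the 8 genes had higher means in MOR-sired VTA and 1 a lower one, against 47.4% of the 19923 tested genes with a log2 fold change above 0. With total counts as the only scaling, 2 had higher means (Rhog and Zyx) and 6 lower ones. The median log2 fold change of the 8 was 0.04 and that of all tested genes −0.01. Groups without overlap and with the MOR-sired one higher were found for 2 of the 8 and for 0.552% of all tested genes, and with it lower for 0 of the 8 and 0.356% of all; since this comparison chose Rhog and Zyx, nothing is read from that count. By edgeR's quasi-likelihood test with Benjamini-Hochberg adjustment, 0 of 19923 genes were called in VTA at an adjusted p under 0.05, or 0% (smallest adjusted p = 0.223), with 1058 at an unadjusted p under 0.05 (2.75% of the tested genes higher and 2.56% lower in MOR-sired VTA). DESeq2 called 30 genes and limma-voom 0.

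In NAC neither Rhog nor Zyx differed beyond the spread between libraries. Rhog ran from 70.8 to 98.5 CPM with a median of 80.4 CPM in the 7 MOR-sired NAC libraries, and from 72.7 to 90.6 CPM with a median of 85.1 CPM in the 7 SAL-sired NAC libraries. Its means were 82.9 ± 10.7 CPM in MOR-sired and 83.4 ± 6.32 CPM in SAL-sired NAC, a fold of 0.994 (95% interval 0.886 to 1.12; edgeR adjusted p = 1.00). Zyx ran from 18.0 to 36.7 CPM with a median of 31.9 CPM in MOR-sired NAC, and from 25.4 to 33.9 CPM with a median of 29.3 CPM in SAL-sired NAC. Its means were 29.8 ± 6.99 CPM in MOR-sired and 29.8 ± 3.60 CPM in SAL-sired NAC, a fold of 1.00 (95% interval 0.810 to 1.24; edgeR adjusted p = 1.00). For both genes the MOR-sired range enclosed the SAL-sired range. MOR-sired NAC 4 was the lowest of the 14 libraries for each of them.

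Dock1 had the smallest p-value of the 8 in NAC, without passing. It ran from 10.1 to 12.8 CPM with a median of 11.9 CPM in MOR-sired NAC, and from 12.6 to 14.5 CPM with a median of 13.6 CPM in SAL-sired NAC. Of the 7 MOR-sired libraries 5 lay below all SAL-sired ones, and the ranges met only at their ends. The means were 11.8 ± 0.931 CPM in MOR-sired and 13.6 ± 0.756 CPM in SAL-sired NAC, a log2 fold change of −0.21 (SE 0.06) or 0.862-fold (95% interval 0.788 to 0.943). The edgeR quasi-likelihood p was 0.00315 unadjusted and 0.56 after Benjamini-Hochberg adjustment over 18220 genes. Over 21 other settings the log2 fold change ran from −0.24 to −0.17 and the adjusted p from 0.157 to 0.986. In the GRCr8 annotation Dock1 overlaps Insyn2a, which was at 3.81 to 5.33 CPM in NAC. The strand setting of the authors' counting is unknown here, and the 2 genes may share reads.

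Elmo1, the binding partner of Dock1, spread more widely in NAC than any other member. It ran from 48.8 to 105 CPM with a median of 57.8 CPM in MOR-sired NAC, and from 58.0 to 90.2 CPM with a median of 63.5 CPM in SAL-sired NAC. The highest library was MOR-sired NAC 4, the one lowest in Rhog and Zyx. The log2 fold change was −0.02 (SE 0.18; edgeR adjusted p = 1.00).

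The 4 adhesion partners did not pass in NAC either. Pxn averaged 18.3 ± 2.22 CPM in MOR-sired and 16.3 ± 1.72 CPM in SAL-sired NAC (n = 7 each), and 4 of 7 MOR-sired libraries lay above all SAL-sired ones (log2 fold change 0.17, SE 0.09, edgeR adjusted p = 0.822). Vasp averaged 14.7 ± 1.72 CPM in MOR-sired and 13.4 ± 0.558 CPM in SAL-sired NAC (0.13, SE 0.07, edgeR adjusted p = 0.849). The log2 fold changes were −0.03 (SE 0.11) for Vcl and −0.04 (SE 0.06) for Tln1, each with an edgeR adjusted p of 1.00. Vcl was highest, at 23.5 CPM, in MOR-sired NAC 4, with every other NAC library at 19.8 CPM or less.

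**Figure D2:**
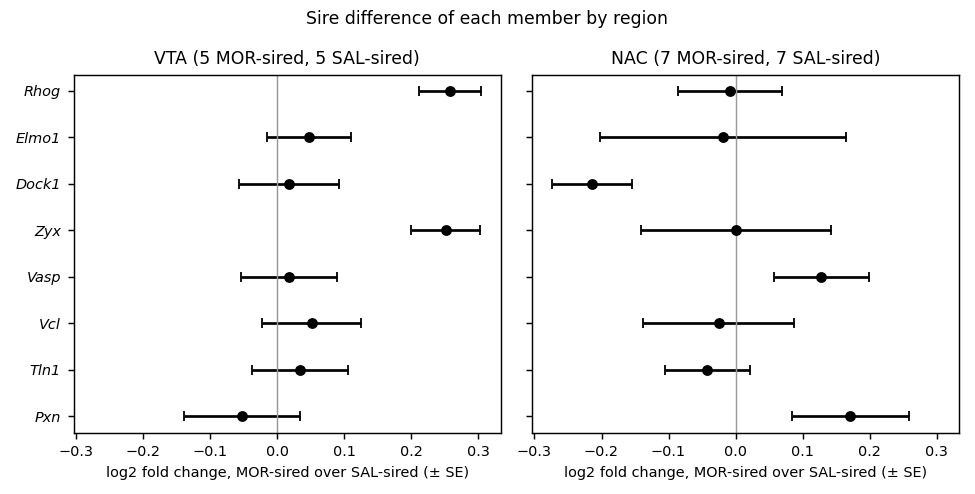
Points give the log2 fold change of MOR-sired over SAL-sired libraries for each gene, with bars of 1 SE, in VTA (left, 5 libraries a group) and NAC (right, 7 libraries a group). Rhog at 0.26 and Zyx at 0.25 are highest in VTA, the comparison that chose them, and lie at −0.01 and 0.00 in NAC. Dock1 is lowest in NAC at −0.21.

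Of the 8 genes 0 were called in NAC, as were 0 of all 18220 tested genes, or 0% (edgeR, smallest adjusted p = 0.56, with 1126 genes at an unadjusted p under 0.05). DESeq2 called 4 NAC genes and limma-voom 52, none of them among the 8. Of the 8, 3 had higher and 5 had lower means in MOR-sired NAC, against 49.5% of all tested genes with a log2 fold change above 0. The median log2 fold change was −0.01 for the 8 and −0.00 for all. An unadjusted p under 0.05 with a lower mean was found for 1 of the 8 and for 1.79% of all tested genes, and with a higher mean for 0 of the 8 and 4.39% of all. No member separated the NAC groups, as 0.0549% of all tested genes did with the MOR-sired group higher and 0.011% with it lower.

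The sire difference in VTA minus that in NAC, from a fit over all 24 libraries, was 0.28 (SE 0.10) for Rhog and 0.26 (SE 0.18) for Zyx on the log2 scale. The error for Zyx was the larger because of its spread in NAC. Dock1 reached 0.24 (SE 0.09), which came from its lower mean in MOR-sired NAC and not from a VTA difference. The other members lay between −0.21 (SE 0.12) for Pxn and 0.09 (SE 0.15) for Vcl. As this contrast holds the VTA comparison that chose the genes, no p-value is given for them. Over all 20603 genes of that fit 0 were called by edgeR, or 0% (smallest adjusted p = 0.421, with 984 at an unadjusted p under 0.05, or 4.78%), and 7 were called without the 4 libraries with Xist.

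Levels by region fell into those that were higher throughout VTA and those that were alike. The region tables were normalized apart, so the regions were not tested against each other. Over all libraries of a region, Rhog came to 156 ± 16.6 CPM in 10 VTA libraries and 83.1 ± 8.42 CPM in 14 NAC libraries (mean ± SD), a ratio of 1.88. Dock1 came to 25.0 ± 1.90 CPM in VTA, against 12.7 ± 1.27 CPM in NAC, a ratio of 1.96. For the adhesion genes Vcl, Vasp and Tln1 the ratios of VTA over NAC were 1.61, 1.59 and 1.52. For these 5 genes every VTA library lay above every NAC library. The share of all genes with such a separation was not computed, so nothing about the 8 as a set is read from this. Zyx came to 29.9 ± 3.02 CPM in VTA, against 29.8 ± 5.34 CPM in NAC, and Elmo1 to 71.1 ± 4.95 CPM in VTA, against 70.9 ± 17.7 CPM in NAC, each a ratio of 1.00. Pxn, at a ratio of 0.951, also overlapped between regions.

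Within VTA the order of levels ran from Rhog through Elmo1, Zyx, Tln1, Vcl, Dock1 and Vasp to Pxn. Rhog lay above Elmo1 and Elmo1 above Zyx in every library range, and Vasp above Pxn. From Zyx down to Vasp each gene's range overlapped the next. Within NAC the order was Rhog, Elmo1, Zyx, Tln1, Pxn, Vcl, Vasp and Dock1. Of neighbours in this order only Elmo1 and Zyx had ranges apart. Of the genes that overlap members in the GRCr8 annotation, Epha1 beside Zyx reached at most 0.584 CPM, while Creb3 beside Tln1 averaged 76.6 ± 2.64 CPM in MOR-sired and 75.2 ± 7.12 CPM in SAL-sired VTA, above Tln1 itself.

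Rhog and Zyx were set against Mbp, which encodes myelin basic protein of oligodendrocytes, and Cldn5, the tight junction protein of brain endothelium. All correlations used log2(CPM + 1). Their p-values came from permutations and were adjusted over a family of 32 relations, 8 genes by 2 markers by 2 regions. For subsets of VTA libraries alone (above 30 M, or without libraries with Xist) the family was 8 genes by 2 markers. Across 10 VTA libraries Rhog and Mbp had r = 0.672 (permutation p = 0.0348, adjusted p = 0.145) with a Spearman rho of 0.442 (permutation p = 0.203, adjusted p = 0.416). Zyx and Mbp had r = 0.673 (permutation p = 0.0349, adjusted p = 0.145) with a Spearman rho of 0.612 (permutation p = 0.0666, adjusted p = 0.301). Neither passed after adjustment. Mbp itself averaged 16923 ± 2394 CPM in MOR-sired and 14217 ± 1425 CPM in SAL-sired VTA, with overlap.

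Both genes form separate clusters by sire group in VTA, so the values over 10 libraries mix the group difference with the relation inside groups. With each sire group's mean subtracted, r with Mbp was 0.335 for Rhog (permutation p = 0.407) and 0.338 for Zyx (permutation p = 0.305). Each group has 5 libraries, too few for a correlation of its own. Without MOR-sired VTA 1 and 2, the libraries farthest from the median of Mbp, r was 0.400 for Rhog and 0.490 for Zyx, so the relation rests in good part on them. Among the 6 libraries above 30 M, r was 0.974 for Rhog (exact permutation p = 0.0083, adjusted p = 0.133) and 0.821 for Zyx (exact permutation p = 0.0639, adjusted p = 0.241). The 4 libraries below 30 M were too few. Without the 4 libraries with Xist (n = 6), r was 0.786 for Rhog (exact permutation p = 0.103) and 0.841 for Zyx (exact permutation p = 0.0444, adjusted p = 0.411). In both sets of 6 Mbp itself separated the sire groups. Above 30 M it was at 14628 CPM or more in MOR-sired and at most 13381 CPM in SAL-sired libraries. Without the libraries with Xist the limits were 19305 and 16173 CPM. These values of r thus mix in the group difference as well, and r with group means subtracted was not computed for them.

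With Cldn5 no relation was detected over the 10 VTA libraries. Rhog had r = 0.0458 (permutation p = 0.899, adjusted p = 0.928) with a Spearman rho of −0.00606 (permutation p = 1.00, adjusted p = 1.00). Zyx had r = −0.00394 (permutation p = 0.991, adjusted p = 0.991) with a Spearman rho of 0.115 (permutation p = 0.759, adjusted p = 0.810). Without MOR-sired VTA 2 and 4 the values of r were 0.283 for Rhog and −0.0595 for Zyx. In the 6 libraries above 30 M they were −0.747 and −0.741, and without the 4 libraries with Xist 0.697 and 0.527, none past adjustment. The sign of both thus turned with the libraries used.

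**Figure D3:**
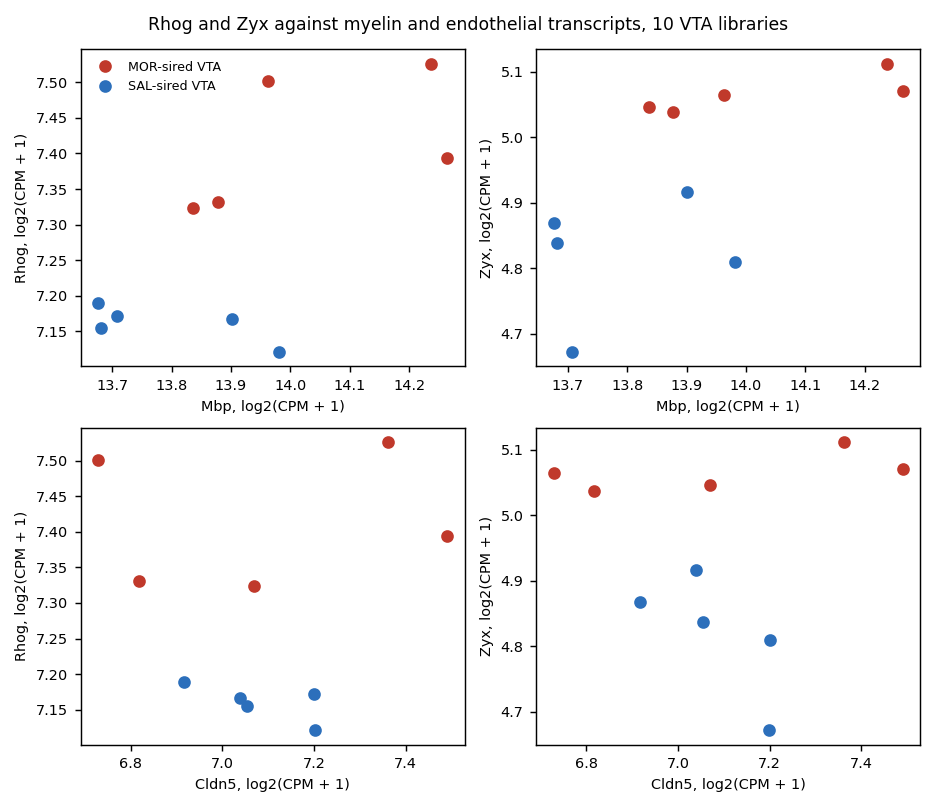
Each point is 1 of 10 VTA libraries, MOR-sired or SAL-sired by colour, with log2(CPM + 1) of Mbp or Cldn5 along the x axis and of Rhog or Zyx along the y axis. The MOR-sired points lie above the SAL-sired ones at all levels of either marker, with r = 0.672 and 0.673 against Mbp and 0.0458 and −0.00394 against Cldn5.

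In NAC, where the sire groups did not separate, Rhog followed Mbp. Across 14 NAC libraries r was 0.854 (permutation p = 0.00019, adjusted p = 0.00608) with a Spearman rho of 0.719 (permutation p = 0.005, adjusted p = 0.160). The correlation r was 0.834 without SAL-sired NAC 5 and 6, 0.861 with group means subtracted (adjusted p = 0.0122) and 0.822 to 0.885 without any 1 library. No other member passed with Mbp or Cldn5 in either region by r. For Zyx and Mbp in NAC r was 0.573 (permutation p = 0.0318, adjusted p = 0.145) with a Spearman rho of 0.473 (permutation p = 0.0917, adjusted p = 0.301). Elmo1 ran against Mbp in NAC, at r = −0.665 (permutation p = 0.0111, adjusted p = 0.145) with a Spearman rho of −0.495 (permutation p = 0.0759, adjusted p = 0.301). Vcl had r = 0.662 with Cldn5 in VTA (permutation p = 0.0362, adjusted p = 0.145) and 0.569 in NAC (permutation p = 0.0318, adjusted p = 0.145), with rho at 0.539 in VTA and 0.556 in NAC (permutation p = 0.113 and 0.0408, adjusted p = 0.301 each).

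NAC punches differed in how much striatal and cortical tissue marker they held. The 6 striatal markers summed to 230.3 to 4675 plain CPM in MOR-sired and 921 to 3559 plain CPM in SAL-sired NAC, and the 5 cortical markers to 143 to 1596 plain CPM in MOR-sired libraries, against 688 to 1478 plain CPM in SAL-sired ones. Members were therefore also set against Slc17a7, which loads glutamate into vesicles of cortical neurons, and Ppp1r1b, which encodes DARPP-32 of striatal neurons, a family of 16 relations added after the data were seen. Slc17a7 was lowest, and Ppp1r1b highest, in MOR-sired NAC 4, at 108 and 3057 CPM. Sets of values along such a gradient say nothing of which cells hold the transcripts.

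Zyx was high where the cortical marker was high. For Zyx and Slc17a7 r was 0.946 (permutation p = 1e-05, the smallest that the 1e+05 permutations can give, adjusted p = 5.33e-05) with a Spearman rho of 0.956 (permutation p = 1e-05, adjusted p = 5.33e-05). It was 0.921 without MOR-sired NAC 4 and 6 and 0.949 with group means subtracted. For Zyx and Ppp1r1b r was −0.844 (permutation p = 0.00017, adjusted p = 0.000544) with a Spearman rho of −0.912 (permutation p = 4e-05, adjusted p = 0.00016). Pearson r was −0.912 without MOR-sired NAC 2 and 4.

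Elmo1 and Vcl ran the other way. For Elmo1 and Ppp1r1b r was 0.958 and rho 0.978 (each with permutation p = 1e-05 and adjusted p = 5.33e-05). Pearson r was 0.965 without MOR-sired NAC 2 and 4. For Elmo1 and Slc17a7 r was −0.854 and rho −0.960 (each with permutation p = 1e-05 and adjusted p = 5.33e-05). Pearson r was −0.974 without MOR-sired NAC 4 and 6. For Vcl and Slc17a7 r was −0.902 (permutation p = 0.0001, adjusted p = 0.0004) with a Spearman rho of −0.811 (permutation p = 0.00083, adjusted p = 0.00266). Pearson r was −0.766 without the same libraries. For Vcl and Ppp1r1b r was 0.740 (permutation p = 0.00209, adjusted p = 0.00478) with a Spearman rho of 0.741 (permutation p = 0.00348, adjusted p = 0.00795). Pearson r was 0.760 without MOR-sired NAC 2 and 4.

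Rhog lay with Zyx on this gradient, less tightly. For Rhog and Ppp1r1b r was −0.783 (permutation p = 0.00088, adjusted p = 0.00235) with a Spearman rho of −0.745 (permutation p = 0.00288, adjusted p = 0.00768). Pearson r was −0.627 without MOR-sired NAC 2 and 4. For Rhog and Slc17a7 r was 0.679 (permutation p = 0.00251, adjusted p = 0.00502) with a Spearman rho of 0.697 (permutation p = 0.00662, adjusted p = 0.0132). Pearson r was 0.663 without MOR-sired NAC 4 and 6. Pxn passed against Slc17a7 (r = −0.567, permutation p = 0.0202, adjusted p = 0.0359), but rho did not (−0.442, permutation p = 0.117, adjusted p = 0.208). Pearson r was −0.196 without MOR-sired NAC 4 and 6, so it rests on those libraries. Dock1, Vasp and Tln1 passed against neither marker.

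With log2 Ppp1r1b as a covariate in the NAC fit, also added after the data were seen, the sire difference was −0.15 for Zyx, 0.11 for Elmo1 and 0.04 for Vcl, each with the sign turned, and −0.07 for Rhog. None of the 8 was called by edgeR in that fit.

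**Figure D4:**
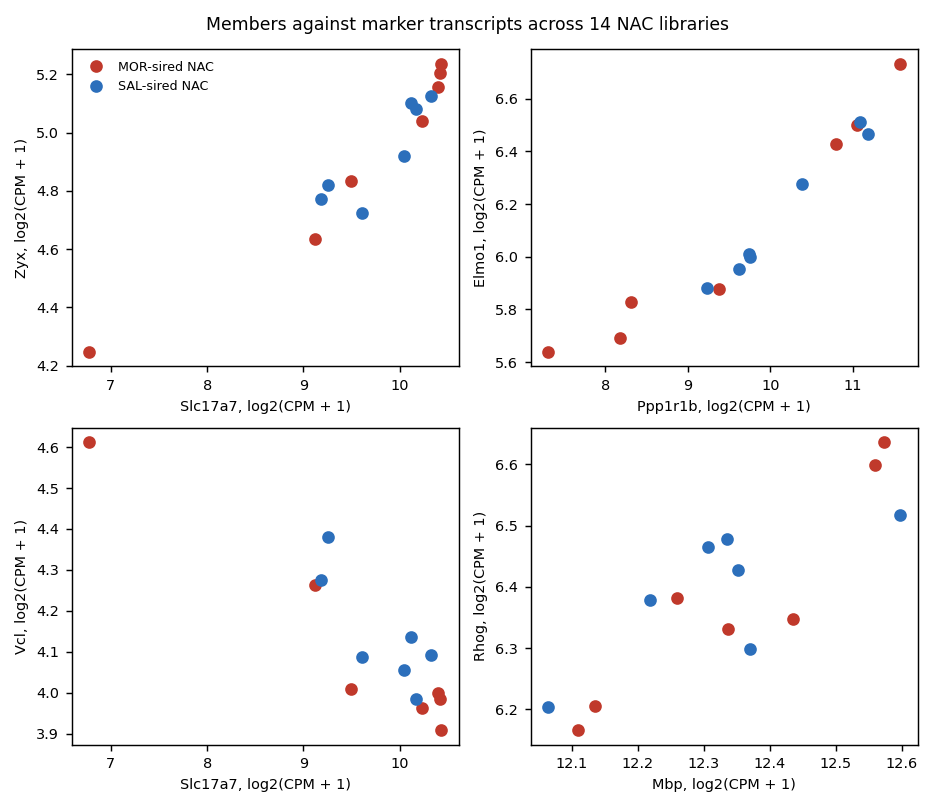
Each point is 1 of 14 NAC libraries, MOR-sired or SAL-sired by colour, with log2(CPM + 1) of the marker along the x axis and of the member along the y axis. Zyx climbs with Slc17a7 (r = 0.946), Elmo1 with Ppp1r1b (0.958) and Rhog with Mbp (0.854), and Vcl falls with Slc17a7 (−0.902).

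Among themselves 4 of 28 pairs of members passed by r in NAC, with group means subtracted and 56 relations in the family over both regions. The share of other gene pairs that would pass in NAC was not computed, so this count is not read as particular to these genes. Elmo1 and Zyx had r = −0.920 (permutation p = 9e-05, adjusted p = 0.00504) with a Spearman rho of −0.916 (permutation p = 7e-05, adjusted p = 0.00392). Elmo1 and Vcl had r = 0.807 (permutation p = 0.00062, adjusted p = 0.0174; rho = 0.692, permutation p = 0.0106, adjusted p = 0.0989). Zyx and Vcl had r = −0.855 (permutation p = 0.00216, adjusted p = 0.0302; rho = −0.723, permutation p = 0.00668, adjusted p = 0.0748). Rhog and Elmo1, whose proteins bind, had r = −0.818 (permutation p = 0.001, adjusted p = 0.0187; rho = −0.780, permutation p = 0.00291, adjusted p = 0.0734). Without the 2 libraries farthest from their sire group mean in the first-named gene of each pair, these 4 values of r were −0.903, 0.744, −0.649 and −0.737. Of the 4 pairs, Elmo1 and Zyx alone passed by both r and rho.

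Rhog and Zyx had r = 0.740 in NAC (permutation p = 0.00837, adjusted p = 0.0781) with a Spearman rho of 0.767 (permutation p = 0.00393, adjusted p = 0.0734), which did not pass. Zyx and its binding partner Vasp had r = 0.0798 there (permutation p = 0.842, adjusted p = 0.921), with rho = −0.0462 (permutation p = 0.900, adjusted p = 1.00). In VTA 0 of 28 pairs passed by permutation of r, with values from −0.637 to 0.621 over 10 libraries. Whether the pairs differ between regions was not tested.

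**Figure D5:**
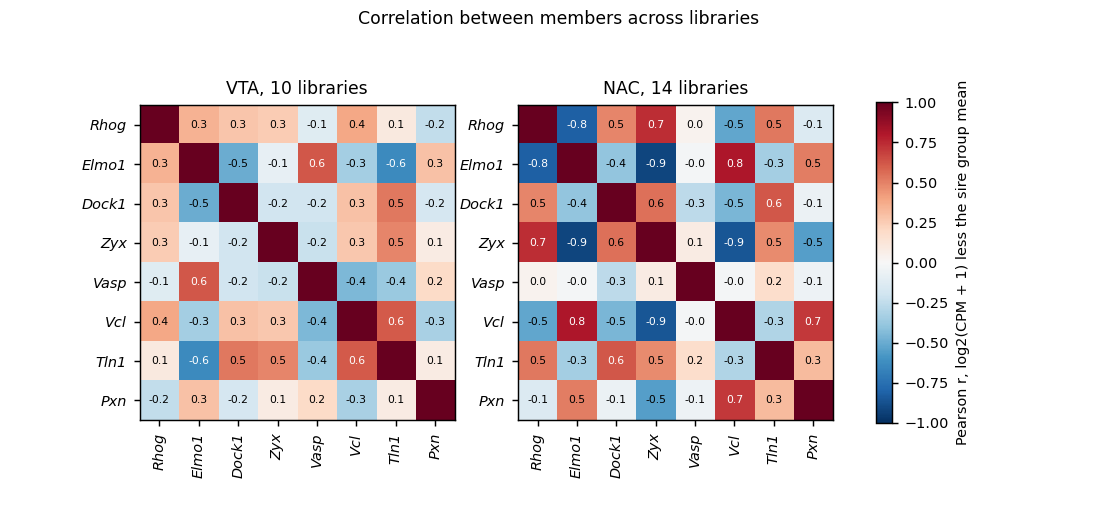
Colour and number in each cell give Pearson r between 2 genes of log2(CPM + 1) with the sire group means subtracted, in VTA (left, 10 libraries) and NAC (right, 14 libraries). In NAC, Rhog and Zyx are blue against Elmo1 (−0.818 and −0.920), and Vcl is red with Elmo1 (0.807), while VTA values run from −0.637 to 0.621.

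The genes most like Rhog and Zyx were taken over the 24 libraries with region and group means subtracted, among 11142 genes with a symbol and a mean of at least 5 CPM in each region. These are descriptions over libraries that share punch composition and depth. Rhog was closest to Slain1 (r = 0.843), Hs3st1 (0.839), Sox10 (0.824), which encodes a transcription factor of the oligodendrocyte lineage, Bin1 (0.817) and Macir (0.802). Zyx was closest to Basp1 (0.954), Sstr1 (0.954), Nptxr (0.954), Vash1 (0.953) and Septin9 (0.952), of which Basp1 encodes a growth-cone protein and Sstr1 a somatostatin receptor. Each of these genes had a higher r over NAC libraries alone than over VTA libraries alone. Over VTA libraries alone r with Rhog ran from 0.418 (Sox10) to 0.593 (Bin1), with Slain1 at 0.571. For Zyx it ran from 0.334 (Nptxr) to 0.725 (Sstr1), with Basp1 at 0.555. Zyx stood at rank 103 for Rhog, and Rhog at rank 1451 for Zyx, with r = 0.697.

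By edgeR's quasi-likelihood test no member of the wider pathway lists was called in either region, and limma-voom called 0 of them. DESeq2 called 0 in NAC and 2 in VTA, Rhog and Zyx, which this comparison had chosen. Each count is of genes with higher or lower means, beside the 47.4% (VTA) and 49.5% (NAC) of all tested genes that were higher, and the lists include the 8 genes. Of RhoG, its relatives, exchange factors and GDIs, 14 of 23 tested genes were higher and 9 lower in MOR-sired VTA (median log2 fold change 0.03), against 9 higher and 15 lower of 24 in NAC (−0.01). Rac2, the Rac of blood and microglial cells, averaged 7.31 ± 1.54 CPM in MOR-sired and 4.95 ± 0.608 CPM in SAL-sired VTA (0.57, SE 0.15, edgeR adjusted p = 0.793), and Rhoq was at −0.15 (SE 0.06). In NAC the RhoG exchange factor Kalrn was at −0.12 (SE 0.07), the exchange factor Mcf2l at 0.12 (SE 0.05) and Rhoj at −0.34 (SE 0.16).

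Of ELMO and DOCK genes, 9 of 14 were higher in MOR-sired VTA (median 0.02), and 5 of 14 in MOR-sired NAC (−0.02). Dock9, an exchange factor for Cdc42, averaged 63.1 ± 3.48 CPM in MOR-sired and 57.4 ± 2.70 CPM in SAL-sired VTA (0.13, SE 0.05, edgeR adjusted p = 0.886), with Dock10 at 0.14 (SE 0.07) and Dock8 at 0.18 (SE 0.14). In NAC, after Dock1, the smallest p-values were those of Elmo3 (0.35, SE 0.13, edgeR adjusted p = 0.669) and Dock2 (−0.19, SE 0.10).

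Of the zyxin family, Ena/VASP and other actin-bound LIM genes, 8 of 20 were higher and 12 lower in MOR-sired VTA (median −0.03), and 14 higher and 6 lower in MOR-sired NAC (0.03). Fblim1, which encodes migfilin, was at −0.84 (SE 0.24, edgeR adjusted p = 0.793) and Csrp2 at −0.28 (SE 0.15) in VTA, where Fblim1 averaged 0.746 ± 0.157 CPM in MOR-sired and 1.35 ± 0.428 CPM in SAL-sired libraries. In NAC the zyxin relatives Trip6 and Lpp were at 0.35 (SE 0.14, edgeR adjusted p = 0.712) and −0.22 (SE 0.09, edgeR adjusted p = 0.835).

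Of focal adhesion plaque genes, 18 of 37 were higher and 19 lower in MOR-sired VTA (median −0.01), and 13 higher and 24 lower in MOR-sired NAC (−0.03). Kank1, which binds talin at the rim of adhesions, averaged 34.5 ± 2.15 CPM in MOR-sired and 29.9 ± 0.871 CPM in SAL-sired VTA without overlap (0.20, SE 0.05, edgeR adjusted p = 0.793). The actin crosslinker Flna was at −0.25 (SE 0.08) and the vinculin-binding Sorbs3 at 0.16 (SE 0.07). In NAC the tensins Tns3 and Tns1 were at −0.12 (SE 0.05) and −0.15 (SE 0.07), and the scaffold Nedd9 at −0.28 (SE 0.13).

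Of integrin subunits, 12 of 19 were higher in MOR-sired VTA (median 0.01) and 7 of 19 in MOR-sired NAC (−0.05). Itga11, a collagen-binding subunit, averaged 0.336 ± 0.0552 CPM in MOR-sired and 0.782 ± 0.368 CPM in SAL-sired VTA (−1.23, SE 0.34, edgeR adjusted p = 0.793), and the part of the fibroblast markers, whose sums are given above, was not tested. In NAC Itga1 was at −0.25 (SE 0.09), Itgb2, of leukocytes and microglia, at −0.20 (SE 0.09) and Itga10 at 0.44 (SE 0.23). Of SRF, MRTF and actin target genes, 4 of 18 were higher and 14 lower in MOR-sired VTA (median −0.03), and 2 higher and 15 lower of 17 in MOR-sired NAC (−0.05). The smooth muscle actin Acta2 was at −0.34 (SE 0.18) in VTA and −0.41 (SE 0.20) in NAC, with Fhl2 at −0.41 (SE 0.17) and Tpm2 at −0.29 (SE 0.13) in VTA. The 12 mural cell markers, of which Acta2 is one, summed to 316 to 452 plain CPM in MOR-sired and 356 to 436 plain CPM in SAL-sired VTA, and to 218 to 278 plain CPM in MOR-sired libraries of NAC, against 245 to 343 plain CPM in SAL-sired ones. Their part in these values was not tested.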

How the data were processed

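RNA-seq libraries of VTA and NAC punches were compared between MOR-sired and SAL-sired offspring. The authors deposited 1 table of gene-level values for each region. Per the file names, the authors made these estimated counts by scaling transcript abundances (TPM) to each library's total. Per the submitters' processing notes Trim Galore, kallisto and DESeq2 were used, with no versions; the build, the annotation and the strand setting were not given in the sources used here. Per the labels' protocols the library kit was directional. Identifiers matched RefSeq symbols of GRCr8, used for names, overlaps and promoter sequences.

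Estimated counts were rounded to whole numbers. Within each region genes passed edgeR's filterByExpr and were tested by its quasi-likelihood test with TMM factors and Benjamini-Hochberg adjustment (called at an adjusted p under 0.05, 2-sided). The SE is the log2 fold change over the square root of F. Correlations used 1e+05 permutations, or exact ones for VTA with libraries left out. With group means subtracted, as for all pairs of members, values were permuted only within sire group. In VTA all such permutations were taken. No counting interval was computed, as scaled estimates are not read numbers. Totals were 21.9 to 43.5 M, and the errors given are the spread between libraries. Alternatives were DESeq2, limma-voom with quality weights, RLE and total-count scaling, no filter, the replicate number as a block, each library left out, and VTA without libraries with Xist. Fits by library total, the Ppp1r1b covariate and the correlations with Slc17a7 and Ppp1r1b were added after the data were seen.

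The members and all lists were chosen with earlier results of these data known. Named genes were the 8 members, up to 3 genes of smallest p per list and region, and the 5 genes most like Rhog and Zyx. The tests were tried on simulated counts. Software was edgeR 4.0.16, DESeq2 1.42.0 and limma 3.58.1 under R 4.3.3, and Python 3.11.15 with pandas 2.3.3 and numpy 2.4.6.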

Additional observations from a re-analysis of the deposited data

Results flagged for a closer look

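In 2 of 32 sets of values, 8 genes in 4 groups, a single library lay far from the rest of its group; chance alone singles out about 1 in 20 such groups. Tln1 in SAL-sired NAC was lowest in SAL-sired NAC 5, at 16.0 CPM, while the other SAL-sired NAC libraries had 18.7 to 20.3 CPM. The gap to its neighbour was 0.636 of the group's range, past the limit of 0.568 for 7 libraries. Vasp in SAL-sired VTA was lowest in SAL-sired VTA 2, at 19.6 CPM, while the other SAL-sired VTA libraries had 22.6 to 23.3 CPM. That gap was 0.814 of the range, past the limit of 0.71 for 5 libraries. SAL-sired NAC 5 was also the lowest SAL-sired NAC library for Rhog, Zyx and Pxn, and SAL-sired VTA 2 the lowest SAL-sired VTA library for Rhog and Elmo1. SAL-sired NAC 5 had the highest total of the NAC libraries, 41.3 M. In SAL-sired VTA 2 the cortical markers summed to 149 plain CPM, against at most 37.4 plain CPM in any other VTA library. The part of either in these values was not tested.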

How the results depend on the processing

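Rhog and Zyx kept a higher mean in MOR-sired VTA in all 20 other settings (log2 fold change 0.17 to 0.32 for Rhog and 0.17 to 0.28 for Zyx), but their groups overlapped in plain CPM. All of these settings reuse the VTA values that chose Rhog and Zyx. Called genes were 4 (DESeq2) and 52 (limma-voom) in NAC, 30 in VTA (DESeq2), and 7 for VTA minus NAC without the libraries with Xist; they were 0 in each other setting run, including every library left out (0 to 0). Why the tools differ was not tested. With the replicate block 0 genes were called in NAC and 0 in VTA, Rhog and Zyx were at 0.26 and 0.25 in VTA, and Zyx at −0.027 in NAC. The labels do not say that shared numbers pair libraries. The correlation of same-numbered deviations ran from −0.38 to 0.18 in NAC (1 of 7 above 0.1, 0 closest to their own number). In VTA it ran from −0.18 to 0.16 (2 of 5 above 0.1, 2 closest to their own number). Those 2 were replicates 1 and 2, which were below 30 M in both sire groups. Whether shared numbers stand for shared processing in VTA was not tested. NAC differences near 0 turned sign: Zyx with DESeq2 (−0.0041), RLE (−0.0041), no filter (−0.018) and the Ppp1r1b covariate (−0.15), Rhog with limma-voom (0.0073) and total counts (0.0045), Elmo1 (0.11) and Vcl (0.044) with that covariate. Leaving out 1 library gave −0.055 to 0.023 for Rhog, −0.144 to 0.053 for Elmo1, −0.057 to 0.090 for Zyx and −0.133 to 0.015 for Vcl in NAC, with MOR-sired NAC 4, 2 or 3 or SAL-sired NAC 7 at the ends.

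Correlations with Cldn5 in VTA turned sign for Rhog in plain CPM (−0.183), by rho (−0.00606), above 30 M (−0.747) and without 1 library (−0.243 to 0.432), and for Zyx by rho (0.115), without Xist libraries (0.527) and without 1 library (−0.251 to 0.191, ends at MOR-sired VTA 2 and 4). With Mbp in VTA above 30 M, Elmo1 came to 0.350, Vasp to 0.717, Vcl to −0.219 and Pxn to 0.368, as did Tln1 with Cldn5 to −0.128; without the 2 farthest libraries Vcl and Pxn with Mbp came to −0.0669 and 0.480. In NAC, Pxn with Mbp was −0.122 without the 2 farthest and −0.169 to 0.301 without 1 library, and Dock1 with Cldn5 −0.126 when centred. Rhog and Tln1 with Cldn5 there ran from −0.00853 to 0.233 and from −0.0319 to 0.323 without 1 library. Of relations that had not passed, Vasp with Ppp1r1b was 0.0436 in plain CPM, 0.130 by rho, 0.132 centred and −0.249 to 0.194 without 1 library. Vasp with Slc17a7 was −0.0126 in plain CPM, −0.0462 by rho and −0.0481 to 0.163 without 1 library. Dock1 with Ppp1r1b was 0.0110 by rho, 0.255 without the 2 farthest and −0.237 to 0.214 without 1 library. Dock1 with Slc17a7 was −0.462 without the 2 farthest and −0.175 to 0.586 without 1 library, and Tln1 was −0.0242 with Slc17a7 by rho and 0.121 with Ppp1r1b without the 2 farthest. The causes of these turns were not tested.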
